A study of Mus musculus with 8 samples.

Results

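The genes described are 10 components of fibroblast growth factor (FGF) signalling: the receptors Fgfr1, Fgfr2, Fgfr3, Fgfr4 and Fgfrl1, and the feedback inhibitors Spry1, Spry2, Spry4, Spred1 and Spred2. They were taken by symbol from a table of raw read counts for 54837 Ensembl genes, and all 10 were found there. The libraries came from mouse mammary basal cells, which form the outer layer of the ductal epithelium and include contractile myoepithelial cells. Cells had been sorted by phase into G0, in which a cell rests outside the cell cycle, and G1, in which it grows ahead of DNA synthesis. Mice were of the strain labelled C57BL/B6 and were not treated, and 4 runs each contributed 1 library per phase. The labels give neither the age or sex of the animals, nor the sorting markers, nor whether the runs used separate animals, so the spread between libraries may be partly technical.

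FGF receptors are cell surface tyrosine kinases that bind FGFs together with heparan sulfate and pass the signal through the adaptor FRS2 to the RAS and ERK cascade. FGFRL1 binds FGFs but lacks the kinase domain. Sprouty and SPRED proteins dampen the RAS and ERK cascade, and several of their genes are themselves induced by it, which closes a feedback loop. In the mammary gland FGFR2 and its ligand FGF10 are known for their part in bud formation and in the branching of the ducts.

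Sequence bears on these data in one way first, because the receptor genes are related and their reads could be confused. Across the 81 annotated transcripts of the 10 genes, the longest stretch identical between any pair was 26 bases, against reads of 100 bases. It is shared by Fgfr1 (chr8:25570179-25570204, plus strand) and Fgfr3 (chr5:33733894-33733919, plus strand), lies in coding sequence in exon 12 of 1 transcript of each gene, and is shown because it marks the closest approach between these genes on GRCm38.
Fgfr1 and Fgfr3 shared stretch: gagatggagatgatgaaaatgattgg
The next longest shared stretches, between Fgfr1 and Fgfr2, Fgfr1 and Fgfr4, and Fgfr3 and Fgfr4, were 20 bases long. No stretch between members was as long as a read.

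The upstream sequences of 2 receptors are shown because Fgfr3 had the largest difference between the phases among the receptors and Fgfr2, its relative, had a small one. Both are RefSeq sequences on GRCm38.p6, printed 5′ to 3′ on the strand of the gene, without any base of an annotated exon. The Fgfr2 sequence lies before a RefSeq start. It is inside the longer span that GENCODE M21 gives this gene, whose 5′ end is at 133123350. Capitals mark a GC box (GGGCGG on either strand), the site bound by factors of the SP family.
Fgfr3, chr5:33721474-33721673, plus strand: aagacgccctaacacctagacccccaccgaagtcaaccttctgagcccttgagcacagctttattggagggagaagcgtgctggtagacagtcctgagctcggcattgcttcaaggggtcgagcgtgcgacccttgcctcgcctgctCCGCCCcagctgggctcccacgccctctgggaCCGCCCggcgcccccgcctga
Fgfr2, chr7:130266809-130267058, minus strand: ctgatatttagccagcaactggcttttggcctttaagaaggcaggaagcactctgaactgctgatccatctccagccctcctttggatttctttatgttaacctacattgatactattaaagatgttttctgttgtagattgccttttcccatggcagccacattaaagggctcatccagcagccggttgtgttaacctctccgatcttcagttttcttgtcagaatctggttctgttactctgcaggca
Promoter windows of 300 bases (250 before the start and 50 after it) were found for 8 of the 10 genes, 9 windows in all, with none for Fgfr1 and Spry4. The GC content was 43.7% in the Fgfr2 window and 69.7% in the first of 2 Fgfr3 windows. A GC box was found in the windows of Fgfr3, Fgfr4, Fgfrl1, Spred1, Spred2 and Spry1, with 4 matches each in the first Fgfr3 window (2 of them in the bases printed) and those of Fgfr4 and Fgfrl1, and in 35.7% of all 32851 windows. An ETS core (CCGGAAG on either strand) was found in the Fgfrl1 window alone among these genes and in 8.86% of all windows. The motifs TGACGTCA (CRE), TGANTCA (AP-1) and TTTNNCGC (a loosened E2F site), also searched on both strands, had no match in these 9 windows and stood in 1.79%, 7.81% and 5.17% of all windows. The GC box and the other motifs differ in their letters, and a match is a description of the letters only.

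Total counts per library ranged from 5868728 to 15014104. The G0 library of run 4 was the shallowest and the one with the most genes detected, 39094, where the other libraries had 20836 to 26614. Values below are CPM, read counts relative to library size, scaled between libraries by trimmed mean of M values (TMM). The defining basal genes were present in every library: the summed level of 8 basal and myoepithelial markers was 19508 to 24241 CPM in G0 and 26698 to 30157 CPM in G1. Markers of other cell types were also present, and 10 of 10 endothelial markers were lower in G1 in all 4 runs, with summed levels of 159 to 277 CPM in G0 and 26.6 to 115 CPM in G1. None of these endothelial markers was at 0 in any library. The members were chosen by name as one signalling family, with the G1 against G0 differences of these libraries already known, so their differences are given as values with standard errors and no p-value, and the 1 count of members called is printed as a description.

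Fgfr3, a receptor best known for restraining bone growth, was the member with the largest difference between the phases. It (ENSMUSG00000054252) lies on chromosome 5 from 33721674 to 33737068 on the plus strand. In G0 it stood at 130 CPM in run 1, 138 CPM in run 2, 93.2 CPM in run 3 and 72.5 CPM in run 4. In G1 the values were 73.8, 67.4, 68.2 and 56.3 CPM. It was lower in G1 within each run, yet the groups overlapped, because the G0 library of run 4 lay just under the G1 library of run 1. The G1 libraries were also much closer to each other than the G0 libraries were, with a G0 mean of 108 ± 31.0 CPM and a G1 mean of 66.4 ± 7.30 CPM (SD, n = 4). The log2 ratio of G1 to G0 was -0.81, -1.04, -0.45 and -0.36 in runs 1 to 4. Fitted by edgeR, the log2 fold change was -0.71 ± 0.21 (SE) with the phase alone in the model and -0.68 ± 0.13 once the run was added as a replicate block. With 1 library left out, it ranged from -0.86 (without the G0 library of run 4) to -0.56 (without the G0 library of run 2). With 1 run left out of the blocked fit, it ranged from -0.78 (without run 4) to -0.55 (without run 2).

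**Figure D1:**
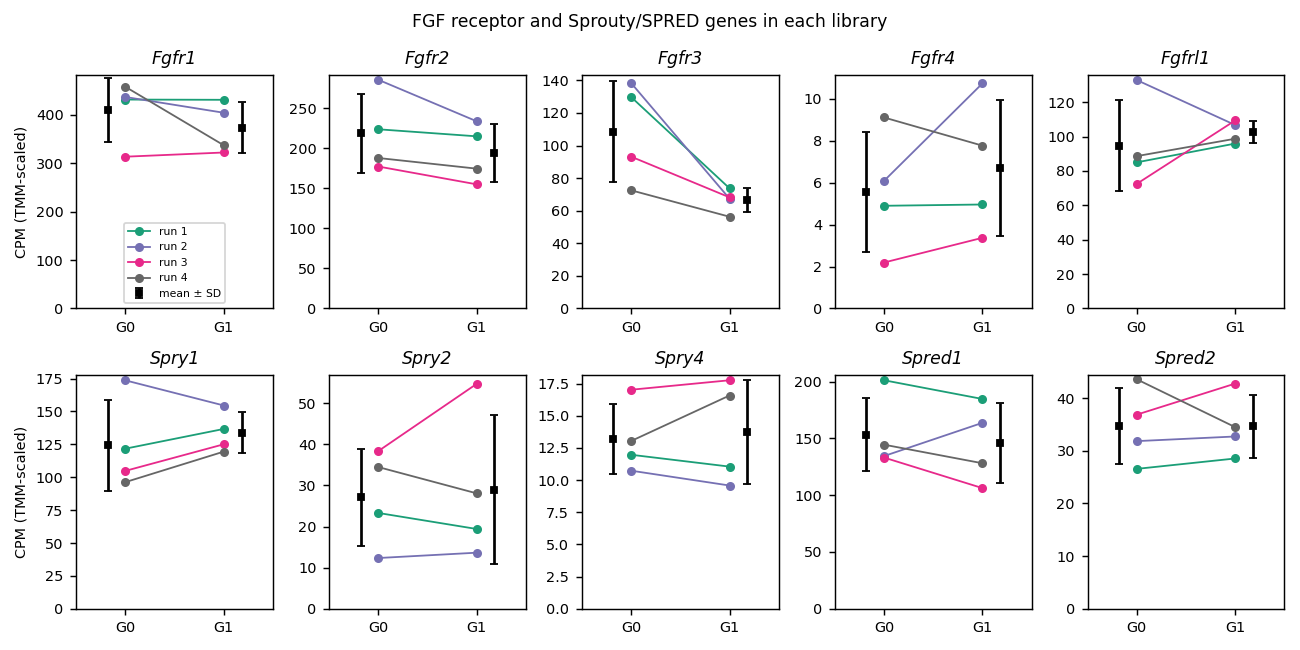
Level of each of the 10 genes in CPM (vertical axis from 0) in the G0 and G1 library of each run, with points of 1 run joined by a line and the group mean ± SD (n = 4) as a black square. The lines of Fgfr3 fall in all 4 runs, from 72.5 to 138 CPM in G0 to 56.3 to 73.8 CPM in G1, while the lines of most other genes cross or lie flat.

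At an adjusted p of 0.05 over 15192 tested genes, 0 of the 10 members were called in either direction with the phase alone, where 0% of all genes were called. With the run block, 1 member, Fgfr3, was called lower, as were 0.764% of all genes, and 0 members were called higher, as were 0.481% of all genes. Because that contrast was known when the members were chosen, nothing is read from this count. Fgfr3 and Fgfr2 had the same sign in all 4 runs, both lower in G1, as did 9.46% of all tested genes. No member was higher in all 4 runs, against 11.3% of all tested genes. The groups overlapped for all 10 members, while 0.829% of all tested genes had every G1 library above every G0 library and 1.17% had every one below. The median fitted log2 fold change of the 10 members was 0.03 with the phase alone and 0.02 with the block, beside -0.0007 and 0.007 for all tested genes.

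The same CPM values, read as shares among the receptors that carry a kinase, gave Fgfr3 a lower share in G1. Taking the CPM per kb of merged exons of Fgfr1, Fgfr2, Fgfr3 and Fgfr4 as the whole, Fgfr3 held 21.4%, 20.8%, 20.8% and 13.1% in the G0 libraries of runs 1 to 4. In the G1 libraries its share was 13.5%, 12.4%, 16.4% and 12.9%. Within each run the share was thus lower in G1, by a very small amount in run 4. Fgfr1 held 52.5 ± 5.31% in G0 and 55.8 ± 1.43% in G1, and Fgfr2 26.6 ± 2.65% and 27.6 ± 1.63% (SD, n = 4). These shares are taken within a library and do not depend on the scaling between libraries. They do depend on the length used for each gene. For Fgfr2 the merged exons measure 10328 bases and the longest transcript 4429.

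Markers of endothelial cells, and some of adipocytes and fibroblasts, were lower in G1 together with Fgfr3. The summed level of the endothelial list was 159, 277, 270 and 275 CPM in the G0 libraries of runs 1 to 4 and 26.6, 64.7, 115 and 87.8 CPM in G1. In the same runs the log2 ratio of G1 to G0 for Fgfr3 was -0.81, -1.04, -0.45 and -0.36. Of 7 adipocyte markers, 4 could be tested and 3 of these were lower in all 4 runs. The summed levels of the 7 were 150.3 to 439 CPM in G0 and 31.3 to 210 CPM in G1. Fabp4, with means of 219 and 88.3 CPM in G0 and G1, contributed most to these sums. Lep, also tested, had a blocked log2 fold change of 0.17 ± 0.53. Adipoq, Plin1 and Cidec, which were not tested, had G0 means of 0.77, 0.63 and 0.58 CPM. Adipoq and Plin1 were at 0 in 2 libraries each and Cidec in 3. Of 8 fibroblast markers, 7 had a negative blocked fold change, 4 were lower in all 4 runs and 3 passed as lower in the blocked fit, Col1a1, Col1a2 and Lum. In that fit 10 of 10 endothelial markers and 1 of the 4 tested adipocyte markers, Lpl, also passed as lower, beside 0.764% of all tested genes. Of the 8 basal markers, 2 passed as higher, Acta2 and Cnn1, beside 0.481% of all tested genes. The summed level of the 8 fibroblast markers was 220, 310, 909 and 320 CPM in the G0 libraries of runs 1 to 4. In G1 it was 257, 333, 620 and 451 CPM, thus higher in G1 in runs 1, 2 and 4 and lower in run 3. Dcn, with means of 178 and 255 CPM in G0 and G1, contributed most to this sum. The 8 basal markers summed to more in G1 in each run, and 7 of them had a positive blocked fold change. Acta2, with means of 7926 and 12213 CPM in G0 and G1, contributed most to this rise. Cnn1 had means of 1797 and 2630 CPM. Krt5, Krt14 and Trp63 differed little, with blocked log2 fold changes of 0.05, 0.05 and -0.008, and each was higher in G1 in 2 of 4 runs. The part of other cell types in the Fgfr3 difference was not tested. In libraries made from many cells, fewer cells of a type and less RNA per cell cannot be told apart. G630022F23Rik, a gene of unsettled type on the opposite strand, overlaps exons of Fgfr3. Its G0 mean was 7.34 ± 4.71 CPM and its G1 mean 4.35 ± 1.45 CPM (SD, n = 4), and since no source says whether counting used the strand, reads of the pair may not be separated. The same holds for the opposite-strand partners of Fgfr1 and Spry1 named below.

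Fgfr1, the receptor with the most reads, differed little between the phases. This gene (ENSMUSG00000031565) lies on chromosome 8 from 25513654 to 25575718 on the plus strand. Its G0 libraries held 431, 437, 313 and 458 CPM in runs 1 to 4, and its G1 libraries 431, 404, 322 and 337 CPM. Run 3 was low in both phases, the G1 library of run 4 was low as well, and the groups overlapped. The fitted log2 fold change was -0.13 ± 0.19, and -0.13 ± 0.11 with the run block. The antisense gene Gm16159 overlaps its exons, at means of 13.9 and 12.5 CPM in G0 and G1.

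Fgfr2, the receptor of FGF7 and FGF10 in epithelia in one of its splice forms, was slightly lower in G1 in each run. In G0 its values were 224, 285, 177 and 188 CPM in runs 1 to 4, and in G1 they were 215, 234, 155 and 174 CPM. The differences within runs were small beside those between runs, and the groups overlapped over most of their range. Its fitted log2 fold change was -0.17 ± 0.20, or -0.16 ± 0.11 with the run block, and without the G0 library of run 2, the highest, it was -0.0063. Counts per gene do not separate the splice forms that differ in ligand choice. In GENCODE M21 this gene (ENSMUSG00000030849) spans 130162451 to 133123350 on the minus strand of chromosome 7, past many other genes. Among those, the exons of Ctbp2 alone, on the same strand, overlap those of Fgfr2, and the G0 and G1 means of Ctbp2 were 77.0 and 93.1 CPM.

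Fgfr4 (ENSMUSG00000005320, chromosome 13 from 55152640 to 55168759, plus strand) was the least abundant receptor. In G0 it stood at 4.90, 6.08, 2.19 and 9.11 CPM in runs 1 to 4, and in G1 at 4.96, 10.7, 3.37 and 7.77 CPM. These values rest on 31 to 140 reads per library. At 31 reads, in the G0 library of run 3, the exact Poisson interval was 21.1 to 44.0 reads, and such intervals cover counting error only. Its fitted log2 fold change, 0.29 ± 0.46 or 0.31 ± 0.27 with the block, was thus poorly determined.

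Fgfrl1 (ENSMUSG00000008090, chromosome 5 from 108692382 to 108706924, plus strand), the receptor without a kinase, had G0 values of 85.0, 133, 72.5 and 88.6 CPM in runs 1 to 4. In G1 the values lay closer together, at 95.9, 107, 109 and 98.7 CPM. All G1 values lay inside the range of the G0 libraries, and G1 was the higher library in runs 1, 3 and 4. The fitted log2 fold change was 0.12 ± 0.20, or 0.15 ± 0.13 with the block.

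Spry1 (ENSMUSG00000037211, chromosome 3 from 37639947 to 37644598, plus strand), a Sprouty feedback inhibitor, was the most abundant of the 3 Sprouty genes. Its G0 libraries held 122, 174, 105 and 96.3 CPM in runs 1 to 4, and its G1 libraries 137, 155, 125 and 120 CPM. It was higher in G1 in 3 of 4 runs and lower in run 2, and the groups overlapped. The fitted log2 fold change was 0.11 ± 0.20, or 0.14 ± 0.12 with the block. Gm42922, on the opposite strand, overlaps its exons at means of 17.99 and 16.4 CPM in G0 and G1.

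Spry2 (ENSMUSG00000022114, chromosome 14 from 105891947 to 105896819, minus strand), whose protein also binds the ubiquitin ligase CBL, showed the widest spread between runs of any member. In G0 it stood at 23.3, 12.3, 38.4 and 34.5 CPM in runs 1 to 4, and in G1 at 19.4, 13.7, 54.7 and 28.1 CPM. Both libraries of run 3 were high and both of run 2 were low, and the phases did not separate. The fitted log2 fold change was 0.09 ± 0.45, or 0.04 ± 0.16 with the block. Without the G1 library of run 3 it turned to -0.41.

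Spry4 (ENSMUSG00000024427, chromosome 18 from 38586247 to 38601415, minus strand) was the least abundant Sprouty gene, with G0 values of 11.97, 10.7, 17.0 and 13.0 CPM in runs 1 to 4. Its G1 values were 11.1, 9.58, 17.8 and 16.6 CPM. As for Spry2, the run 3 libraries were the highest and the run 2 libraries the lowest. The fitted log2 fold change was 0.05 ± 0.27, or 0.03 ± 0.19 with the block.

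Spred1 and Spred2 encode SPRED proteins, which bind neurofibromin and so act on RAS. Spred1 (ENSMUSG00000027351) lies on chromosome 2 from 117121374 to 117182279 and Spred2 (ENSMUSG00000045671) on chromosome 11 from 19924375 to 20024026, both on the plus strand. Spred1 held 201, 134, 133 and 145 CPM in the G0 libraries of runs 1 to 4, and 185, 164, 106 and 128 CPM in G1. Its G0 library of run 1 stood above the other 3, and the groups overlapped. Spred2 held 26.6, 31.9, 36.9 and 43.6 CPM in G0, and 28.6, 32.7, 42.8 and 34.5 CPM in G1. The fitted log2 fold changes were -0.07 ± 0.21 for Spred1 and -0.001 ± 0.20 for Spred2, or -0.08 ± 0.12 and 0.01 ± 0.14 with the block.

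**Figure D2:**
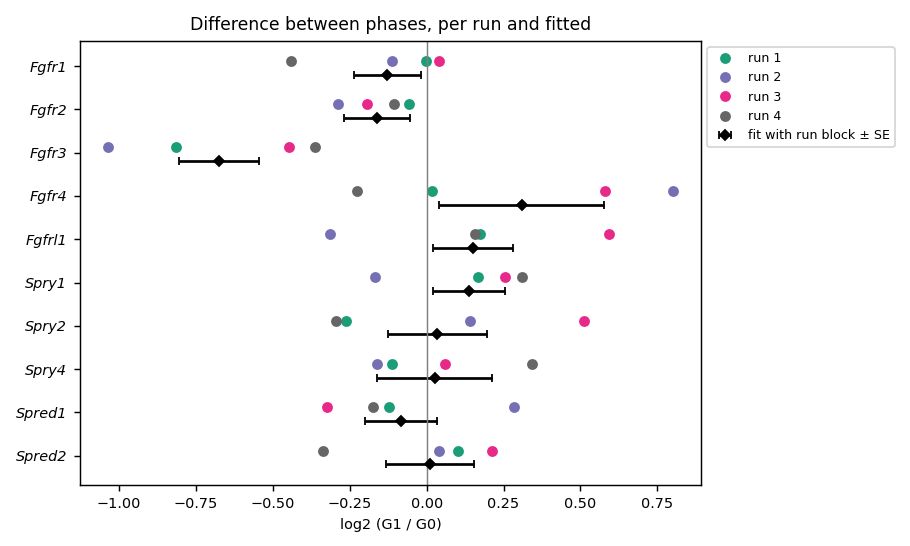
Log2 ratio of G1 to G0 (horizontal axis) for each of the 10 genes, as 1 coloured point per run and, in black, the fitted log2 fold change ± SE with the run block. The 4 points of Fgfr3 lie between -1.04 and -0.36, and the 4 of Fgfr2 are below 0 as well, while each of the other genes has points on both sides of 0.

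Except for Fgfr3, run took a larger share of the spread of each member than phase did. Run has more degrees of freedom than phase, so a larger share for run arises even where neither has an effect. Of the sum of squares of log2 CPM over the 8 libraries, phase made up 57.9% for Fgfr3 and run 32.4%. For the other 9 genes, run made up 47.8% (Fgfrl1) to 94.3% (Spry2) and phase 0.01% (Spred2) to 9.67% (Fgfr1). For Fgfrl1 the remainder, 42.7%, was close to the share of run. The ratio of the highest to the lowest run mean was 3.58 for Spry2, 3.04 for Fgfr4 and from 1.32 to 1.71 for the rest. For Fgfr1, Fgfr2, Fgfr4 and Spred1, run 3 had the lowest mean, and for Spry2, Spry4 and Spred2 it had the highest.

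**Figure D3:**
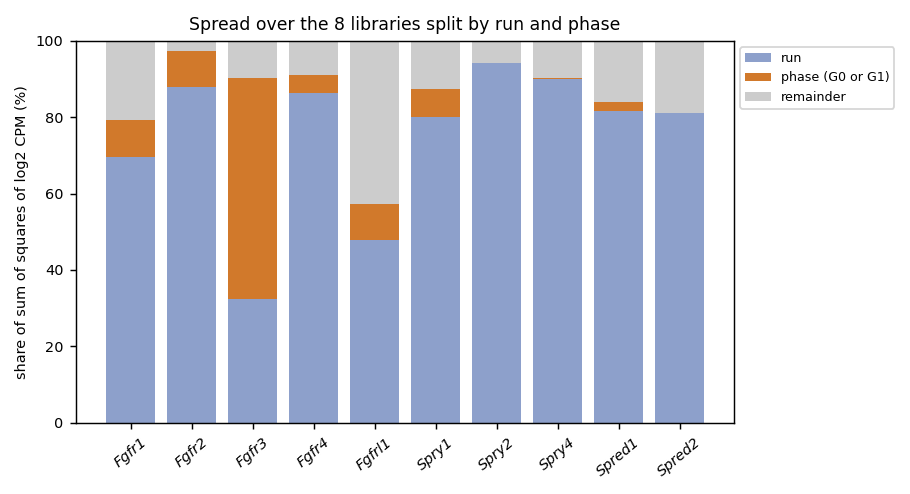
Share of the sum of squares of log2 CPM over the 8 libraries (vertical axis, percent) that fell to the run, to the phase and to the remainder, 1 bar per gene. The phase takes 57.9% for Fgfr3 and at most 9.67% for any other gene. Run has more degrees of freedom than phase, so the heights of their parts are not directly comparable.

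These opposite patterns showed as correlations over the 8 libraries, which share 4 runs and are therefore not independent. Spry2 and Spry4 had a Pearson r of 0.889. Fgfr2 had r of -0.935 with Spry2 and -0.874 with Spry4, so the libraries rich in the receptor were poor in these 2 inhibitors. Spry1 went the other way, with r of 0.737 with Fgfr2 and -0.785 with Spry2. Summed levels of several other lists were also highest in run 3 in both phases. The fibroblast sum was 909 CPM in G0 and 620 CPM in G1 of that run, the adipocyte sum 439 and 210 CPM, the luminal sum 3372 and 2917 CPM, and the sum of the ERK target list 7437 and 6308 CPM. The part of other cell types in the differences between runs was not tested.

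Among genes whose log2 CPM averaged 3 or more, those most like Fgfr3 over the 8 libraries were Lmnb2 (r = 0.943), Scaf4 (r = 0.911) and Vps37b (r = 0.904). For Fgfr1 the closest genes were Col17a1, a collagen of hemidesmosomes (r = 0.998), Patj (r = 0.984) and Gapvd1 (r = 0.972). Fgfr2 was closest to Ptpn9 (r = 0.972), Atg7 (r = 0.971) and Rgs12 (r = 0.969). Spry2 was closest to Tcof1 (r = 0.975), and Spry4 to Wdr89 (r = 0.976). These values are the highest of 9375 genes compared on 8 libraries in 4 runs and are a description only.

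Per length, Spry1, Fgfr1 and Fgfrl1 had the highest levels of the members. In CPM per kb of merged exons, the means over 8 libraries were 44.4 ± 8.74 for Spry1, 39.7 ± 5.88 for Fgfr1 and 35.5 ± 6.56 for Fgfrl1 (SD, n = 8). Spred1 followed at 22.0 ± 4.65 and Fgfr2 at 20.0 ± 4.05, then Spry2 at 13.4 ± 6.80 and Fgfr3 at 12.2 ± 4.28. Spred2, at 7.51 ± 1.33, Spry4, at 2.83 ± 0.67, and Fgfr4, at 1.73 ± 0.82, were the lowest. Neighbours in this order often changed places: Spry1 exceeded Fgfr1 in 6 of 8 libraries, Fgfr1 exceeded Fgfrl1 in 5, Fgfr2 exceeded Spry2 in 6 and Spry2 exceeded Fgfr3 in 4. Fgfrl1 exceeded Spred1, Fgfr3 exceeded Spred2, and Spred2 exceeded Spry4 in all 8 libraries. The order depended on the length used, since merged exons of Fgfr1 measure 9875 bases and its longest transcript 5041. For Fgfr2 these lengths are 10328 and 4429 bases. Per kb of the longest transcript, Fgfr1 ranked first and Fgfr2 second, with means of 77.7 and 46.6 CPM per kb, and Spry1 came after them at 46.5 CPM per kb.

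**Figure D4:**
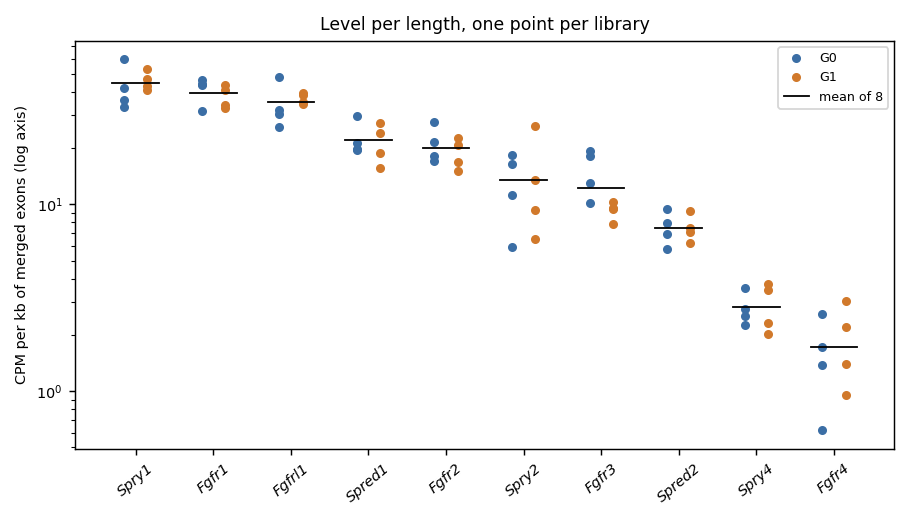
Level of each gene per library in CPM per kb of merged exons (logarithmic vertical axis), with G0 and G1 libraries in separate colours and the mean of the 8 libraries as a line. Genes run from Spry1, at a mean of 44.4, to Fgfr4, at 1.73, and the 4 G1 points of Fgfr3, from 7.87 to 10.3, lie at the foot of its G0 points, from 10.1 to 19.3.

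Other genes of the pathway were read from 4 lists, with tests from the fit over all 15192 genes. Among the FGF ligands, 6 of 22 could be tested and 0 were called in either direction with or without the run block. Fgf1 was the most abundant, with G0 and G1 means of 190.3 ± 48.7 and 205 ± 47.6 CPM, followed by Fgf2 with 34.4 ± 2.44 and 30.6 ± 7.05 CPM (SD, n = 4). Fgf2 had a log2 fold change of -0.17 ± 0.19, Fgf22 of -0.38 ± 0.52 and Fgf11 of 0.41 ± 0.69. With the block they were -0.18 ± 0.16, -0.24 ± 0.51 and 0.37 ± 0.63. Each of the 16 ligands that were not tested, including Fgf7 and Fgf10, averaged under 1 CPM in both phases.

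Of 26 co-receptors, heparan sulfate proteoglycans and their enzymes, 23 were tested and 0 were called with or without the block. Flrt3, a membrane protein that binds FGF receptors, had G0 values of 21.8, 22.3, 19.6 and 17.7 CPM in runs 1 to 4 and G1 values of 23.1, 27.4, 27.0 and 35.0 CPM. Its groups did not overlap, as for 0.829% of all tested genes with G1 higher, but its log2 fold change of 0.46 ± 0.19 did not pass edgeR's quasi-likelihood test (adjusted p = 0.99992, or 0.237 with the block). Flrt1 had a log2 fold change of -0.91 ± 0.54 and the heparan sulfate sulfotransferase Hs6st2 of 0.38 ± 0.22. With the block they were -1.02 ± 0.47 and 0.39 ± 0.18. The median over the list was -0.09, or -0.06 with the block.

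Of 25 adaptors and members of the RAS and ERK relay, all 25 were tested and 0 were called with or without the block. Cbl, the ubiquitin ligase that takes part in receptor turnover, held 26.8, 32.2, 28.7 and 27.5 CPM in the G0 libraries of runs 1 to 4, and 23.7, 22.2, 22.0 and 20.5 CPM in G1. Its groups did not overlap, as for 1.17% of all tested genes with G1 lower, and its log2 fold change of -0.38 ± 0.17 did not pass (edgeR adjusted p = 0.99992, or 0.275 with the block). Its relative Cblb had -0.37 ± 0.23 and Hras 0.29 ± 0.22, or -0.36 ± 0.14 and 0.28 ± 0.13 with the block. The list median was -0.10, or -0.09 with the block.

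Among ERK targets and other feedback genes, 19 of 20 were matched in the table and tested. With the phase alone 0 were called, as over all genes (0%). With the run block 2 of the 19 were higher and 1 lower in G1, beside 0.481% and 0.764% of all tested genes. The list median was -0.10, or -0.06 with the block, and 3 of the 19 genes were higher and 5 lower in all 4 runs, beside 11.3% and 9.46% of all tested genes. Etv5, an ETS transcription factor of the PEA3 group that FGF signalling induces, rose in the blocked fit by 0.66 ± 0.16 on the log2 scale (edgeR adjusted p = 0.0365). It stood at 33.9, 39.0, 35.5 and 31.6 CPM in the G0 libraries of runs 1 to 4 and at 44.4, 51.7, 49.2 and 85.4 CPM in G1. The groups did not overlap, and the G1 library of run 4 stood well above the others. Without run 4, the log2 fold change was 0.41 ± 0.14 and no longer passed (edgeR adjusted p = 0.38). With the phase alone it was 0.72 ± 0.22 (edgeR adjusted p = 0.99992).

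Ccnd1, cyclin D1, and Egr1, an immediate early factor, were the other genes of that list that passed in the blocked fit. Ccnd1 rose by 0.87 ± 0.19 (edgeR adjusted p = 0.0176). It stood at 11.9, 8.41, 10.2 and 15.5 CPM in the G0 libraries of runs 1 to 4. In G1 it stood at 26.6, 21.5, 14.1 and 21.1 CPM, and the groups overlapped. With the phase alone its log2 fold change was 0.86 ± 0.26 (edgeR adjusted p = 0.99992). With run 1 or run 2 left out of the blocked fit, Ccnd1 did not pass (edgeR adjusted p = 0.0779 and 0.139). Egr1 fell by 0.47 ± 0.10 on the log2 scale (edgeR adjusted p = 0.0162, but 0.0712 without run 1). The close relative of Etv5, Etv4, had 0.61 ± 0.23 and the phosphatase gene Dusp4 0.65 ± 0.24, each higher in 3 of 4 runs, and neither passed (edgeR adjusted p = 0.269 and 0.225, blocked). Fos, an immediate early factor like Egr1, had -0.44 ± 0.11 and was lower in all 4 runs (edgeR adjusted p = 0.0501, blocked). It passed as lower with the block in DESeq2 and in limma-voom (adjusted p = 0.0281 and 0.026). In the blocked edgeR fit Fos did not pass without run 1, 2 or 3 (edgeR adjusted p = 0.132, 0.266 and 0.0671). Without run 4 it passed (edgeR adjusted p = 0.0127). With the phase alone its log2 fold change was -0.46 ± 0.44, or 0.04 without the G0 library of run 3. Dusp6, the ERK phosphatase often read as a measure of ERK output, had -0.13 ± 0.11 with a G0 mean of 634 ± 37.5 CPM and a G1 mean of 579 ± 48.2 CPM (SD, n = 4). Thus genes of this list lay on both sides of 0. The endothelial sums given above, lower in G1 in each run, stand beside these values too, and their part was not tested.

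**Figure D5:**
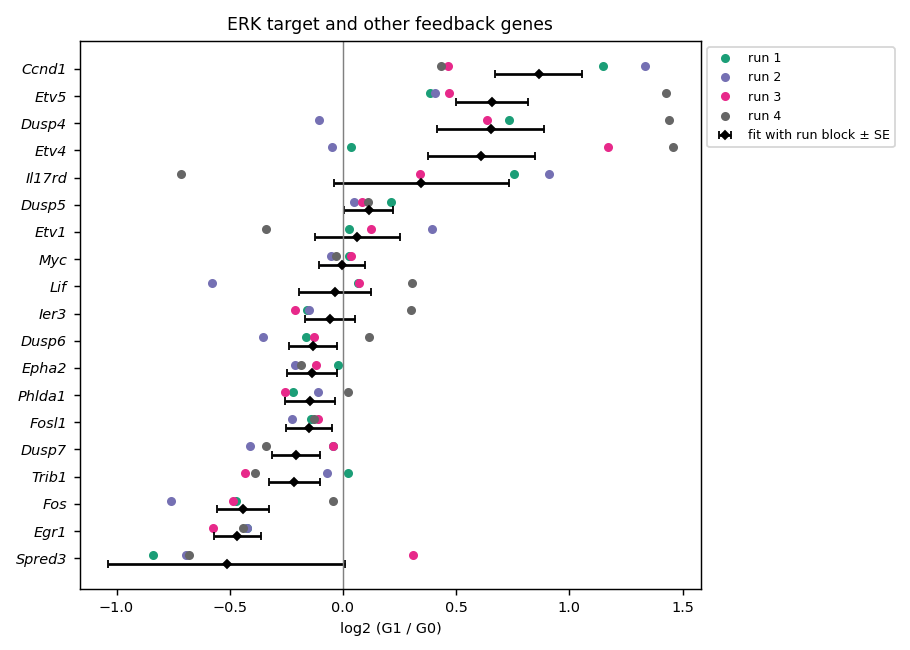
Log2 ratio of G1 to G0 (horizontal axis) for the 19 tested ERK target and other feedback genes, as 1 coloured point per run and, in black, the fitted log2 fold change ± SE with the run block. Ccnd1 and Etv5 lie at 0.87 and 0.66 with all 4 points above 0, Egr1 lies at -0.47 with all 4 below 0, and Dusp6 lies near 0.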

How the data were processed

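RNA was measured in 8 libraries, 4 per phase. Per the labels' protocols, RNA was enriched with oligo-dT beads, and stranded TruSeq libraries were read as 100-base pairs. Per the submitters' processing notes, Trimmomatic 0.35 and STAR 2.5.2a were used on mm10; which program counted reads, with which annotation and strand setting, is not given in the sources used here. As deposited by the authors, values are raw counts per Ensembl gene; 54722 of 54837 identifiers matched a GENCODE M21 symbol (GRCm38, the assembly also called mm10). Library totals, 5868728 to 15014104, set the counting error.

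Groups and run numbers come from the titles. Pairs of libraries within a group gave a chi-square per degree of freedom of 21.7 to 95.1, far above sampling noise, so none was a copy. Genes passing filterByExpr (15192) were tested with edgeR 4.0.16 in R 4.3.3 (TMM, robust quasi-likelihood, two-sided, Benjamini-Hochberg at 0.05), with the phase alone as the main model. A standard error is the size of the log2 fold change divided by the root of edgeR's F. Run ratios used a prior count of 2. Deviations from group means correlated within runs at 0.668, 0.47, 0.638 and 0.437 and between runs at 0.0971 at most, so the run numbers pair the libraries and blocked values are printed. DESeq2 1.42.0 and limma 3.58.1 (voom), other scaling and filters, and libraries or runs left out were alternatives. The fits were also run on simulated counts with planted changes, and no statement here rests on that.

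The members and lists were chosen with earlier results of these data known. Named genes are the members, list genes past the threshold or among the 3 smallest p of their list, and the 3 genes most like each member (not all are named). Fgf1, Fgf7, Fgf10, Etv4, Dusp6, Fos, the single marker genes and the genes whose exons overlap a member lie outside this rule and were added with their values in view.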

Additional observations from a re-analysis of the deposited data

Results flagged for a closer look

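Spred1 in the G0 library of run 1 stood at 201 CPM, against 133 to 145 CPM in the other 3 G0 libraries. The gap to the nearest of the others was 0.833 of the whole range, above Dixon's critical value of 0.829 for 4 samples. It was the 1 such value among 20 groups of 4 examined (10 genes in 2 phases), and chance flags about 1 in 20 groups.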

How the results depend on the processing

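Calls over all genes depended on the run term, the tool and the filter. Main model counts were 0 higher and 0 lower, against 425 genes at an unadjusted p under 0.05 (156 higher, 269 lower). They were 14 and 73 without the low-count filter, 10 and 24 with DESeq2, and 73 and 116 with the replicate block. Leaving out single libraries gave 0 to 0 in the unblocked fit, and leaving out whole runs of the blocked fit gave 21 to 99 higher (99, 63, 73 and 21 without runs 1 to 4) and 76 to 175 lower (175, 90, 144 and 76). DESeq2 and limma-voom with the block, alternatives chosen after seeing the data, gave 97 and 136, and 63 and 134. In the 4 pathway lists together, the main model called 0 and 0 and the replicate block 2 higher and 1 lower. DESeq2 and limma-voom with the block gave 2 higher and 2 lower each, and runs left out of the blocked fit gave 1 to 2 higher and 0 to 2 lower. The cause was not tested.

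Of 200 member values under alternatives, 198 lay within 1 SD of the run ratios from the main value. The exceptions were Fgfr2 (-0.0063 without the G0 library of run 2, range -0.26 to -0.0063) and Spry2 (-0.41 without the G1 library of run 3, range -0.41 to 0.34). Fgfr3 ranged from -0.86 to -0.55. Fgfr4, Fgfrl1, Spry2, Spry4, Spred1 and Spred2 took both signs over the alternatives. With the longest transcript as length, the ranks in level were 1 for Fgfr1, 2 for Fgfr2, 3 for Spry1, 4 for Fgfrl1, 5 for Spred1, 6 for Fgfr3 and 7 for Spry2, in place of 2, 5, 1, 3, 4, 7 and 6. At 31 to 140 reads per library, depth limits Fgfr4 most.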
